A study of Mus musculus with 9 samples.

Results

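The genes of homologous recombination, of the Fanconi pathway and of the ATM and ATR checkpoint were measured in 4T1, a mouse line grown from a mammary carcinoma of the BALB/c strain. They are 37 genes of the 55416 in the count tables, listed by symbol. The list was chosen with earlier results of these data known. The symbol given as Claspn was matched to the gene annotated as Clspn. All 37 passed the filter on low counts, which kept 13439 genes. RNA sequencing was run on 3 libraries each of the MRC+L, MRC and PBS groups. MRC+L cells were kept for 12 h in DMEM medium with MRC nanoparticles and received 660 nm light for 3 min at 180 mW/cm2. MRC cells had the same particles for 12 h without light. PBS cells are labelled untreated and were in fresh DMEM medium for 12 h. The labels do not spell out MRC, and no group here had light without particles. The 3 groups share 1 cell line, and no label says that libraries came from separate cultures, so each p-value rests on the spread among these libraries alone, and that spread may be technical.

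Homologous recombination mends a broken chromosome by copying the intact sister. The ends are first cut back by MRE11, RAD50, NBN, the protein of Rbbp8 and EXO1, then BRCA1, PALB2 and BRCA2 prepare the bared strand, and a family of paralogs and RAD54 help it to invade its partner. The Fanconi pathway handles crosslinks between the strands: a core complex with the ubiquitin-conjugating enzyme UBE2T marks the pair FANCD2 and FANCI, and SLX4 and BRIP1 act after it. ATM and ATR are the kinases that sense breaks and stalled forks, and they signal through CHEK2 and CHEK1. Most of these genes are needed when DNA is being copied, and many are transcribed more in dividing cells.

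Library totals lay between 15019765 and 20044166 counts, so that a count of 0 would have allowed a level of 0.150 to 0.200 CPM, for counting error only (3 counts). The repair genes had between 65 and 6009 counts in a PBS library. Levels are CPM, the count divided by a library size that TMM factors correct, and are given library by library in replicate order, or as mean ± SD with n = 3. The replicate spread differed between groups, with a biological coefficient of variation of 0.0580 in MRC+L, 0.0806 in MRC and 0.280 in PBS. PBS replicate 2 stood apart: the decile of genes with the shortest exon length lay 0.920 log2 units above the decile with the longest, relative to the mean over libraries. In the other 8 this difference was -0.249 to 0.0843. Where leaving out this library changed a call of a repair gene, both values are given. In bulk RNA, fewer cells that express a gene and less RNA per cell cannot be told apart.

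Rad51c, Rad54l, Fanca, Fancg, Fancl, Ube2t, Brip1, Chek2 and Clspn were called lower in both groups of particle-exposed cells, and Rbbp8 was called higher in both. In MRC+L against PBS 14 of 37 genes were called (edgeR quasi-likelihood test, adjusted p under 0.05), 3 higher and 11 lower, which is 37.8% of them. Over all genes tested 46.2% were called in that comparison, 21.8% higher and 24.5% lower. In MRC against PBS 11 were called, 2 higher and 9 lower, or 29.7%, where 37.6% of all genes were called, 17.8% higher and 19.8% lower. With upper quartile scaling that split was 0 higher and 10 lower (16.5% and 21.4% of all genes). The main fit used edgeR, all 9 libraries, TMM scaling, a mean for each group and no other term. In it the share called lower was thus near that of all genes, at 29.7% in MRC+L and 24.3% in MRC. The share called higher was below that of all genes, at 8.11% and 5.41%. The median log2 fold change of the 37 genes was -0.21 in each of these comparisons, beside -0.03 over all genes, and 29 genes lay below 0 in MRC+L and 31 in MRC, where 51.8% of all genes did so in each. Both comparisons use the same PBS libraries. Without PBS replicate 2 the count was 4 higher and 22 lower in MRC+L (27.4% and 28.3% of all genes) and 2 higher and 22 lower in MRC (24.7% and 26.0%), so that 59.5% of the repair genes were lower in each. limma voom with a quality weight for each library called 7 higher and 26 lower in MRC+L (36.2% and 37.1% of all genes) and 6 higher and 24 lower in MRC (33.0% and 32.9%), which is 70.3% and 64.9% of the repair genes lower. Fits to the 6 libraries compared called 1 higher and 9 lower in MRC+L (17.2% and 20.1%) and 0 higher and 6 lower in MRC (12.9% and 15.7%).

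**Figure D1:**
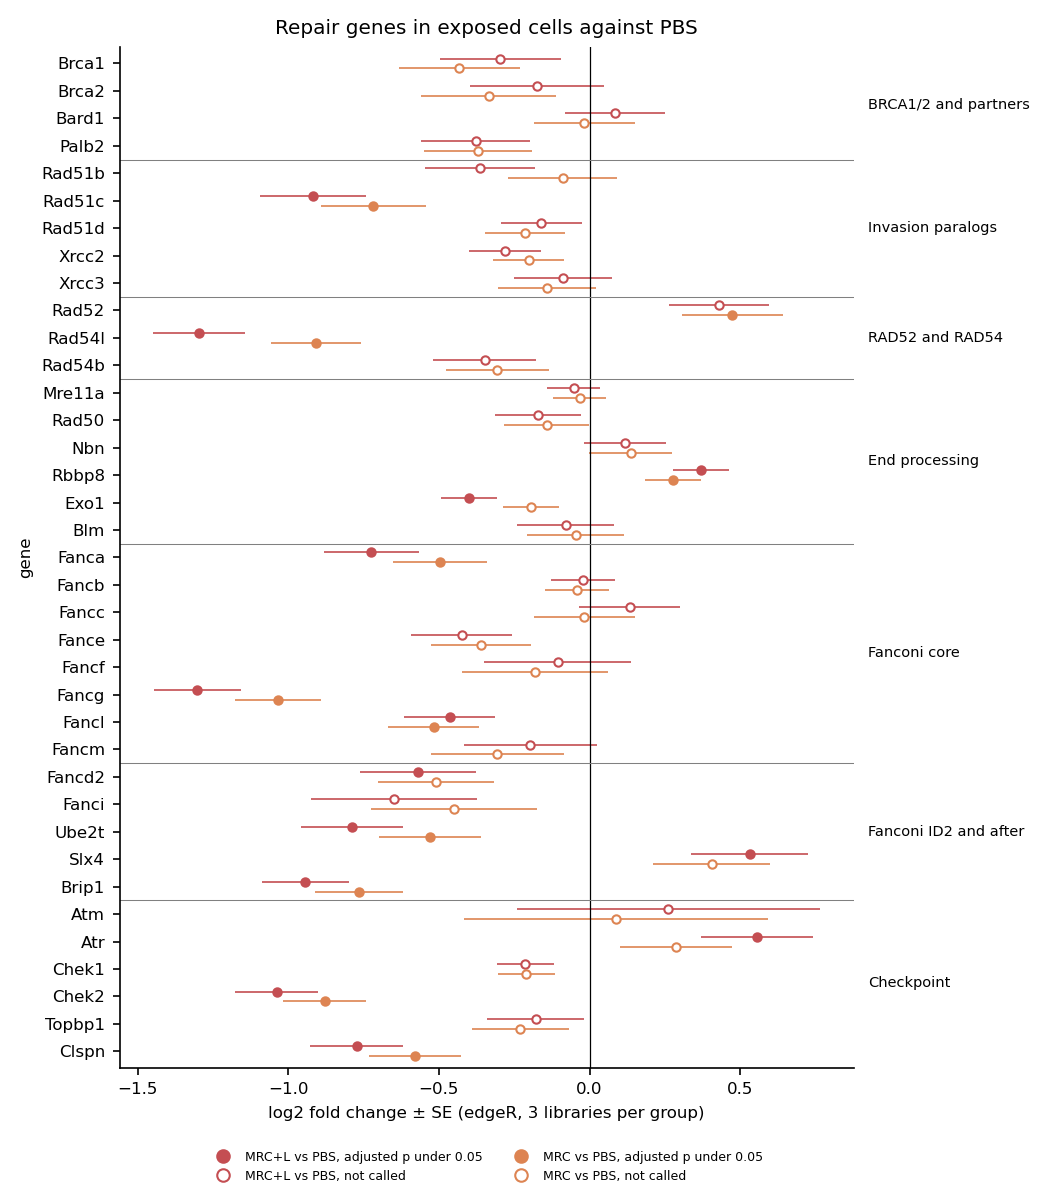
Log2 fold change against PBS (x axis) of each of the 37 repair genes (rows, grouped by role), in MRC+L (red) and MRC (orange), with bars of 1 SE and filled points for genes called at an adjusted p under 0.05. Fancg and Rad54l lie farthest to the left at -1.30 in MRC+L, and Atr and Slx4 farthest to the right at 0.55 and 0.53.

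Libraries of exposed cells and of PBS did not overlap at all for some of these genes. In MRC+L 3 genes lay above every PBS library and 14 below, where 28.2% and 28.1% of all genes did so. In MRC 2 lay above and 11 below, where 24.1% and 24.2% of all genes did so. The widest gaps belonged to Fancg, Rad54l, Chek2 and Brip1, which are described first.

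**Figure D2:**
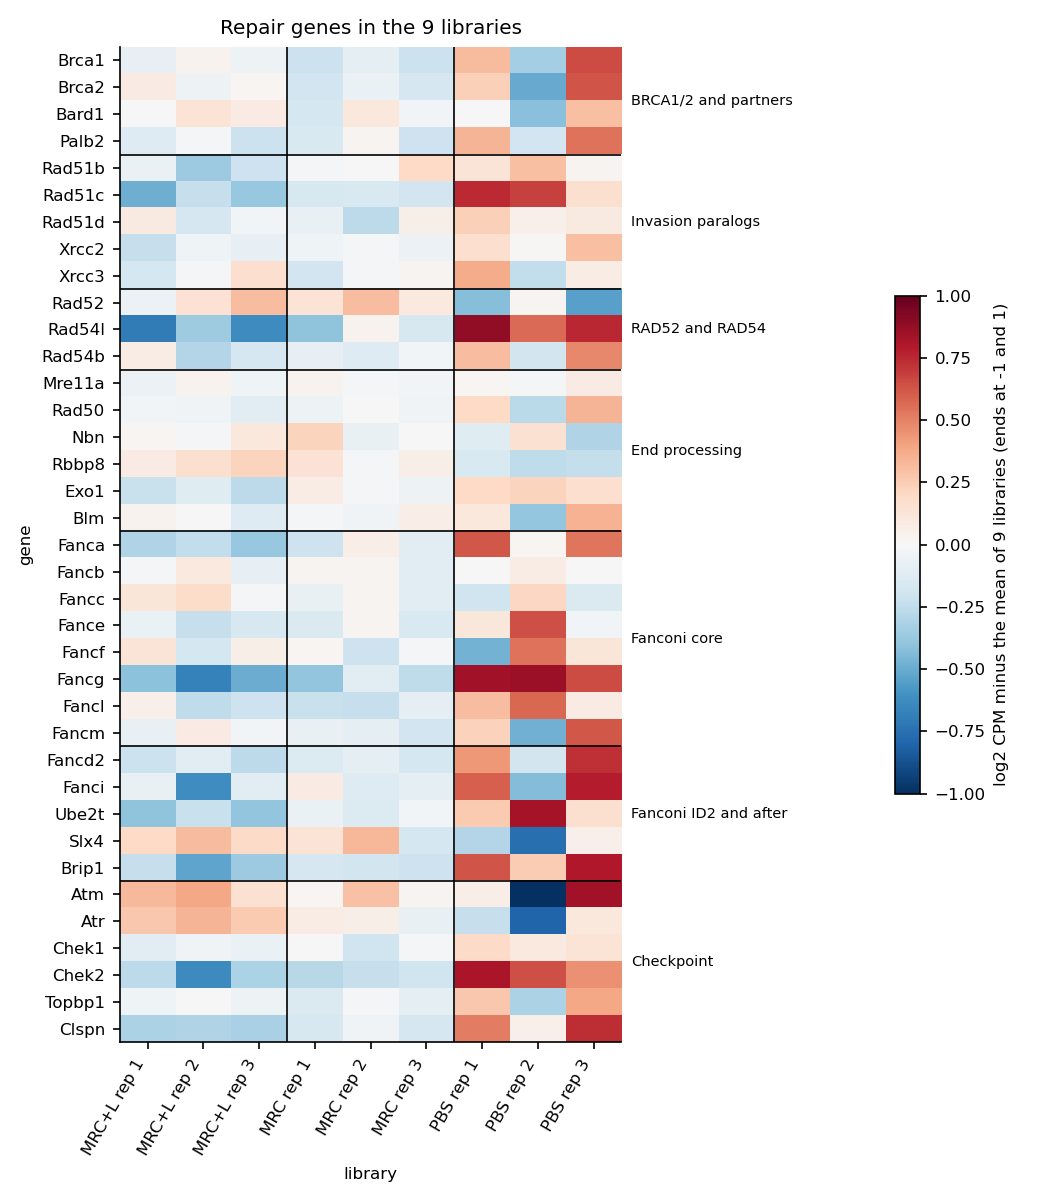
Log2 CPM of each repair gene (rows) in each of the 9 libraries (columns, MRC+L, MRC, then PBS), minus the gene's mean over the 9 libraries; red is higher and blue lower, and colours end at -1 and 1. Fancg, Rad54l, Chek2 and Brip1 are red in all 3 PBS libraries, whereas many other rows are pale or blue in PBS replicate 2 alone, with Atm there beyond the end of the scale.

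Fancg (ENSMUSG00000028453, chr4:43002343-43010506, minus strand, GRCm39) encodes a scaffold subunit of the Fanconi core complex and had the smallest adjusted p of the 37 genes. It had 6.86, 5.69 and 6.45 CPM in MRC+L, 6.90, 8.39 and 7.64 CPM in MRC, and 16.2, 16.4 and 14.3 CPM in PBS. Every exposed library lay below every PBS library, PBS replicate 2 included. The log2 fold change was -1.30 ± 0.14 (SE) in MRC+L, or 2.47-fold lower (adjusted p = 7.55e-05), and -1.03 ± 0.14 in MRC, or 2.05-fold lower (adjusted p = 0.000378).

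Rad54l (ENSMUSG00000028702, chr4:115951461-115980887, minus strand) encodes RAD54, a motor protein of strand invasion. It had 13.8, 17.5 and 14.5 CPM in MRC+L, 17.0, 22.9 and 20.0 CPM in MRC, and 41.5, 33.3 and 37.8 CPM in PBS. The highest exposed library, MRC replicate 2, was still well below the lowest PBS library. The log2 fold change was -1.30 ± 0.15 in MRC+L (2.46-fold lower, adjusted p = 0.00011) and -0.91 ± 0.15 in MRC (1.88-fold lower, adjusted p = 0.00111). A share of 15.4% of its exon length overlaps Lrrc41, and reads from that stretch cannot be assigned with certainty in counts made without strand.

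Chek2 (ENSMUSG00000029521, chr5:110987845-111022011, plus strand) encodes the checkpoint kinase that ATM activates. It had 16.1, 12.5 and 15.5 CPM in MRC+L, 16.0, 16.5 and 16.8 CPM in MRC, and 34.0, 30.1 and 26.5 CPM in PBS. Exposed libraries were again separate from those of PBS, with PBS replicate 2 in the middle of its group. Chek2 fell by 1.04 ± 0.14 on the log2 scale in MRC+L (2.06-fold lower, adjusted p = 0.000238) and by 0.88 ± 0.14 in MRC (1.84-fold lower, adjusted p = 0.000801).

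Brip1 (ENSMUSG00000034329, chr11:85948964-86092019, minus strand) encodes a helicase that binds BRCA1 and is also the Fanconi gene J. It had 27.0, 22.0 and 24.7 CPM in MRC+L, 28.2, 27.8 and 27.4 CPM in MRC, and 48.9, 37.8 and 55.1 CPM in PBS. All exposed libraries lay below PBS replicate 2, the lowest of the PBS libraries. Its log2 fold change was -0.94 ± 0.15 in MRC+L (1.92-fold lower, adjusted p = 0.000596) and -0.77 ± 0.15 in MRC (1.70-fold lower, adjusted p = 0.00245). These 4 genes were called in both comparisons in each of the 9 fits that left out 1 library.

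**Figure D3:**
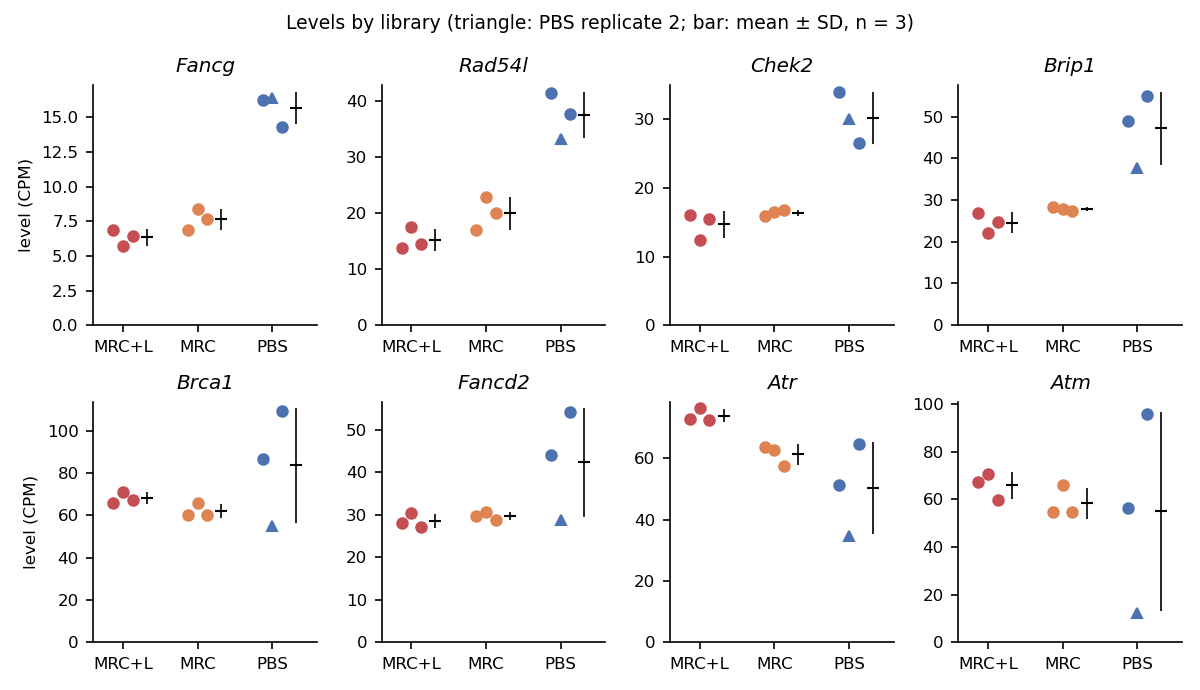
CPM (y axis, from 0) of 8 repair genes in each library of MRC+L, MRC and PBS; points are libraries, the triangle is PBS replicate 2, and bars give the mean and SD of 3 libraries. For Fancg, Rad54l, Chek2 and Brip1 every exposed library lies below every PBS library, whereas for Brca1, Fancd2 and Atm PBS replicate 2 lies within or below the exposed libraries.

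The stretches of 250 bases before the RefSeq start of these genes are shown because the 4 genes were lower together (GRCm38.p6, read along the gene's strand; all other coordinates are GRCm39). Capitals mark matches, on either strand, to an E2F core (TTCCCGC or TTGGCGC) or to a CCAAT box.
Fancg, chr4:43010302-43010551, minus: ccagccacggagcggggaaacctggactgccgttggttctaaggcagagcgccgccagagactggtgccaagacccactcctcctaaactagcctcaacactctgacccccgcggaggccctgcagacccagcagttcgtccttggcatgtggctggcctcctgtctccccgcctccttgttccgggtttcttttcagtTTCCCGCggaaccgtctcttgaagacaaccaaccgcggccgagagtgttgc
Rad54l, chr4:116123691-116123940, minus: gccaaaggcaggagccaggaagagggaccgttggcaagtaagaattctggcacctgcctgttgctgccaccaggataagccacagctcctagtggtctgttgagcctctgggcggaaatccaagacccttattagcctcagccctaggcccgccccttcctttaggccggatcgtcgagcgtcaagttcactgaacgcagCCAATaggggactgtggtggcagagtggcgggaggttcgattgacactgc
Chek2, chr5:110839733-110839982, plus: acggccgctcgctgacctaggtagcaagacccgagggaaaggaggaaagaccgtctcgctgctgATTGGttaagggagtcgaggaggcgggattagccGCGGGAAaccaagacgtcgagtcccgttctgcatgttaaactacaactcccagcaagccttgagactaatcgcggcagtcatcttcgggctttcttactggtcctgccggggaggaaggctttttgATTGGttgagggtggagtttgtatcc
Brip1, chr11:86201194-86201443, minus: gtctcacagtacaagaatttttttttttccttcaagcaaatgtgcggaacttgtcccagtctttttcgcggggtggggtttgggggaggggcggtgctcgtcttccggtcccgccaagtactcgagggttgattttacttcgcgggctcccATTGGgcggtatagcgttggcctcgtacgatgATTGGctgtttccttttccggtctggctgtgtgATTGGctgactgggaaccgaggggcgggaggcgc
Fancg holds an E2F core, Rad54l and Brip1 a CCAAT box, and Chek2 both kinds of match. A RefSeq promoter was matched for 29 of the 37 genes. An E2F core was in 10 of them (34.5%), against 5.71% of 27025 promoters of all genes and 10.6% of 9217 promoters of protein-coding genes that passed the count filter. A CCAAT box was in 18 (62.1%), against 34.5% and 37.2%. The cell cycle homology region, searched as TTTGAA, was in 1 (3.45%), that of Bard1, against 16.3% and 10.2%. Promoters of repair genes called lower in MRC+L held an E2F core in 3 of 9 and a CCAAT box in 6 of 9, and those of the other repair genes in 7 of 20 and 12 of 20. The second E2F core shares letters with a CCAAT box where the 2 overlap, as in the Ube2t promoter.

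Brca1 and Brca2 and their partner genes Bard1 and Palb2 were not called in either comparison in the main fit. Other fits of all 9 libraries differed. With limma voom and quality weights Brca1, Brca2 and Palb2 were called lower in both. So they were in edgeR with an offset that takes out each library's trend with exon length (log2 fold changes -0.53 to -0.44, adjusted p up to 0.0139). Without the count filter Brca1 was called lower in MRC. Brca1 (chr11:101379590-101442781, minus strand), a ubiquitin ligase with its partner BARD1, had 65.7, 71.2 and 67.2 CPM in MRC+L, 60.2, 65.6 and 60.01 CPM in MRC, and 86.5, 54.9 and 109 CPM in PBS. PBS replicate 2 lay below all exposed libraries and the other PBS libraries above them all. On the log2 scale the difference was -0.30 ± 0.20 in MRC+L (adjusted p = 0.247) and -0.43 ± 0.20 in MRC (adjusted p = 0.116). Without PBS replicate 2 it was -0.53 ± 0.10 (adjusted p = 0.000113) and -0.67 ± 0.10 (adjusted p = 8.59e-06).

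Brca2 (chr5:150446095-150493794, plus strand), which acts on single-stranded DNA, had 61.4, 56.0 and 58.6 CPM in MRC+L, 50.7, 55.4 and 51.5 CPM in MRC, and 68.4, 40.9 and 89.6 CPM in PBS. The pattern was that of Brca1, with PBS replicate 2 alone at the bottom. With all libraries the log2 fold change was -0.18 ± 0.22 in MRC+L (adjusted p = 0.539) and -0.34 ± 0.22 in MRC (adjusted p = 0.265), and without PBS replicate 2 it was -0.43 ± 0.10 (adjusted p = 0.00145) and -0.59 ± 0.10 (adjusted p = 6.66e-05). Palb2, the link between BRCA1 and BRCA2, averaged 14.3 ± 0.991 CPM in MRC+L, 14.4 ± 1.26 CPM in MRC and 18.6 ± 4.63 CPM in PBS. Its log2 fold change in the main fit was -0.38 in MRC+L (adjusted p = 0.111) and -0.37 in MRC (adjusted p = 0.132). Among fits with 1 library left out it was called lower only without PBS replicate 2 (-0.56 in each comparison, adjusted p = 0.000923 in MRC+L and 0.00107 in MRC). Bard1 averaged 39.1 ± 1.85 CPM in MRC+L, 36.4 ± 3.54 CPM in MRC and 36.9 ± 8.97 CPM in PBS, and no fit that left out a library called it.

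Of the 5 paralogs that act in strand invasion, Rad51c was called lower and the others were not. Rad51c (ENSMUSG00000007646, chr11:87267471-87295780, minus strand) had 5.996, 7.16 and 6.45 CPM in MRC+L, 7.54, 7.57 and 7.39 CPM in MRC, and 14.1, 13.5 and 9.40 CPM in PBS. The exposed libraries kept below PBS replicate 3, the lowest of the PBS libraries for this gene. Rad51c had a log2 fold change of -0.92 ± 0.18 in MRC+L (1.89-fold lower, adjusted p = 0.00207) and -0.72 ± 0.17 in MRC (1.64-fold lower, adjusted p = 0.00903), and it was called in all 9 fits that left out a library. Rad51b, Rad51d, Xrcc2 and Xrcc3 had log2 fold changes between -0.36 and -0.09 in the same comparisons. Without PBS replicate 2 Xrcc2 was also called in MRC+L (-0.35, adjusted p = 0.0153) and Xrcc3 in MRC (-0.29, adjusted p = 0.0472). In the main fit these values were -0.28 (adjusted p = 0.0753) and -0.14 (adjusted p = 0.524). The offset for exon length also called Xrcc2 lower in MRC+L (-0.29, adjusted p = 0.0366).

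The annealing factor Rad52 was called higher in MRC. It averaged 21.7 ± 2.77 CPM in MRC+L, 22.4 ± 1.76 CPM in MRC and 16.1 ± 3.50 CPM in PBS, where replicate 2 was the highest library at 20.1 CPM and the others had 14.7 and 13.6 CPM. Its log2 fold change was 0.43 ± 0.17 in MRC+L (adjusted p = 0.0584) and 0.47 ± 0.17 in MRC (1.39-fold higher, adjusted p = 0.0476). Of the 9 fits that left out a library, the 1 without PBS replicate 2 called it, at 0.62 ± 0.13 (adjusted p = 0.000482) in MRC+L and 0.66 ± 0.13 (adjusted p = 0.000296) in MRC. Rad54b, a relative of Rad54l, was not called in the main fit (-0.35, adjusted p = 0.119, in MRC+L and -0.31, adjusted p = 0.184, in MRC). It was called lower without PBS replicate 2 (-0.51, adjusted p = 0.000979, in MRC+L and -0.48, adjusted p = 0.00199, in MRC). The offset for exon length called it lower in MRC+L (-0.39, adjusted p = 0.0300), and limma voom with quality weights called it lower in both. A share of 35.9% of its exon length overlaps other genes, mainly Fsbp.

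Of the 6 genes that act on DNA ends, Rbbp8 was called higher in each comparison and Exo1 lower in MRC+L. Mre11a, the nuclease of the complex that first binds an end, averaged 127 ± 4.38 CPM in MRC+L, 128 ± 2.77 CPM in MRC and 131 ± 4.56 CPM in PBS, and its partners Rad50 and Nbn were not called either. In the main fit the log2 fold change of Rad50 was -0.17 (adjusted p = 0.346) in MRC+L and -0.14 (adjusted p = 0.460) in MRC. Without PBS replicate 2 Rad50 was called at -0.33 (adjusted p = 0.00198) in MRC+L and -0.31 (adjusted p = 0.0039) in MRC. Exo1, which extends the resected stretch, averaged 39.5 ± 2.01 CPM in MRC+L, 45.6 ± 2.08 CPM in MRC and 52.1 ± 1.04 CPM in PBS. It was called lower in MRC+L (-0.40 ± 0.09, adjusted p = 0.00623, and in all 9 fits that left out a library) and not in MRC (-0.19 ± 0.09, adjusted p = 0.127). Rbbp8, which encodes the resection factor CtIP, had 71.4, 75.6 and 79.0 CPM in MRC+L, 74.7, 66.6 and 70.4 CPM in MRC, and 60.7, 56.6 and 57.4 CPM in PBS, with no overlap between exposed and PBS libraries. It was higher in MRC+L at 0.37 ± 0.09 (1.29-fold, adjusted p = 0.00902) and in MRC at 0.28 ± 0.09 (1.21-fold, adjusted p = 0.0401). The MRC call was kept in 1 of the 9 fits, that without PBS replicate 2. With an offset that takes out each library's trend with exon length, the fold changes of Rbbp8 were 0.00 (adjusted p = 0.995) and 0.02 (adjusted p = 0.951). The helicase gene Blm was not called in the main fit (-0.08, adjusted p = 0.708, in MRC+L and -0.05, adjusted p = 0.850, in MRC). It was called lower without PBS replicate 2 (-0.26, adjusted p = 0.0223, and -0.23, adjusted p = 0.0432). In MRC+L it was also called lower with the offset for exon length (-0.25, adjusted p = 0.0367) and with limma voom and quality weights (-0.14, adjusted p = 0.0478).

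Of the 8 genes of the Fanconi core complex and its anchor, 3 were called lower in each comparison and none higher. Beside Fancg these were Fanca, the largest subunit, and Fancl, the ubiquitin ligase of the complex. Fanca averaged 27.9 ± 1.25 CPM in MRC+L, 32.7 ± 3.22 CPM in MRC and 46.1 ± 9.72 CPM in PBS, with log2 fold changes of -0.72 ± 0.16 (1.65-fold lower, adjusted p = 0.00427) and -0.50 ± 0.16 (1.41-fold lower, adjusted p = 0.0308). The MRC+L call was kept in all 9 fits that left out a library. The MRC call was lost in 6 of them, those without PBS replicate 1 or 3, MRC replicate 1 or 3, or MRC+L replicate 1 or 2 (highest adjusted p = 0.117). Fancl averaged 15.3 ± 1.77 CPM in MRC+L, 14.7 ± 0.789 CPM in MRC and 21.1 ± 3.58 CPM in PBS, with log2 fold changes of -0.46 ± 0.15 (adjusted p = 0.0285) and -0.52 ± 0.15 (adjusted p = 0.0216). Each Fancl call was lost in 3 of the 9 fits: without PBS replicate 1 in both, without MRC+L replicate 2 or 3 in MRC+L (up to 0.106), and without MRC replicate 1 or 2 in MRC (up to 0.0762). A share of 10.5% of the exon length of Fanca overlaps Zfp276 and 13.7% of that of Fancl overlaps Vrk2.

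The other 5 core genes were not called in the main fit. Also on all 9 libraries, limma voom with quality weights called Fance and Fancm lower and Fancf higher in both, and Fancc higher in MRC+L. Fancb averaged 22.3 ± 1.43 CPM in MRC+L, 22.0 ± 1.22 CPM in MRC and 22.6 ± 0.743 CPM in PBS. Fancc and Fancf were low, at 6.43 ± 0.466 and 5.48 ± 0.587 CPM in MRC+L, 5.79 ± 0.290 and 5.21 ± 0.431 CPM in MRC, and 5.86 ± 0.940 and 5.92 ± 2.01 CPM in PBS. Fance averaged 25.0 ± 1.43 CPM in MRC+L, 26.1 ± 1.90 CPM in MRC and 33.5 ± 8.58 CPM in PBS (log2 fold change -0.42, adjusted p = 0.0603, and -0.36, adjusted p = 0.114), and among fits with 1 library left out it was called in both only without PBS replicate 3 (adjusted p = 0.0128 and 0.027). Fancm, the translocase that brings the complex to DNA, averaged 27.4 ± 1.49 CPM in MRC+L, 25.4 ± 1.12 CPM in MRC and 31.4 ± 11.3 CPM in PBS. Its log2 fold change in the main fit was -0.20 in MRC+L (adjusted p = 0.487) and -0.31 in MRC (adjusted p = 0.302). Among fits with 1 library left out it was called only without PBS replicate 2 (-0.44, adjusted p = 0.00287, in MRC+L and -0.56, adjusted p = 0.000426, in MRC). The offset for exon length also called it lower (-0.41, adjusted p = 0.0132, and -0.44, adjusted p = 0.0111).

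Around the step of ubiquitin attachment, the enzyme gene Ube2t, the substrate gene Fancd2 and Brip1 were called lower in MRC+L, and Slx4 was called higher. Ube2t (chr1:134890303-134901900, plus strand) had 21.2, 24.1 and 21.4 CPM in MRC+L, 26.7, 25.4 and 27.5 CPM in MRC, and 33.6, 50.0 and 31.4 CPM in PBS. PBS replicate 2 was the highest library for this gene, the reverse of Brca1. Ube2t had a log2 fold change of -0.79 ± 0.17 in MRC+L (1.73-fold lower, adjusted p = 0.00407) and -0.53 ± 0.17 in MRC (1.44-fold lower, adjusted p = 0.032), and without PBS replicate 2 -0.55 (adjusted p = 0.000154) and -0.30 (adjusted p = 0.0219). The MRC+L call was kept in all 9 fits that left out a library. The MRC call was lost in 5 of them, those without any 1 of the MRC libraries or without MRC+L replicate 1 or 3 (highest adjusted p = 0.103).

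Fancd2 (chr6:113508643-113573978, plus strand) had 28.1, 30.4 and 27.2 CPM in MRC+L, 29.6, 30.7 and 28.9 CPM in MRC, and 44.1, 28.8 and 54.3 CPM in PBS. The exposed libraries were within a few CPM of PBS replicate 2 and far below the other PBS libraries. For Fancd2 the log2 fold change was -0.57 ± 0.19 in MRC+L (1.48-fold lower, adjusted p = 0.0346) and -0.51 ± 0.19 in MRC (adjusted p = 0.0602). The call in MRC+L was kept in 1 of the 9 fits that left out a library, that without PBS replicate 2, where the values were -0.78 ± 0.11 (adjusted p = 2.44e-06) in MRC+L and -0.73 ± 0.11 (adjusted p = 6.97e-06) in MRC. Its partner Fanci averaged 12.6 ± 2.49 CPM in MRC+L, 14.5 ± 1.19 CPM in MRC and 19.8 ± 7.69 CPM in PBS and had its PBS libraries in the same order, at -0.65 (adjusted p = 0.078) and -0.45 (adjusted p = 0.223) with all libraries and -0.93 (adjusted p = 1.76e-05) and -0.74 (adjusted p = 0.00023) without PBS replicate 2. A share of 16.0% of its exon length overlaps Polg.

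Slx4, the scaffold for nucleases that cut at a crosslink, had 51.3, 55.4 and 50.8 CPM in MRC+L, 49.1, 56.0 and 39.4 CPM in MRC, and 36.5, 26.4 and 46.1 CPM in PBS. Only the MRC+L libraries lay clear of PBS. For Slx4 the log2 fold change was 0.53 ± 0.19 in MRC+L (1.45-fold higher, adjusted p = 0.0459) and 0.41 ± 0.19 in MRC (adjusted p = 0.125). Of the 9 fits that left out a library, only that without PBS replicate 3 called Slx4 higher in MRC. The MRC+L call was kept in 3 of the 9 fits, those that left out PBS replicate 3, MRC replicate 3 or PBS replicate 2 (in the last of these 0.35, adjusted p = 0.0251). It was lost in the others, with a highest adjusted p of 0.124.

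Of the 6 checkpoint genes, Chek2 and Clspn were called lower in each comparison and Atr was called higher in MRC+L. Atr (chr9:95739650-95833834, plus strand), the kinase of stalled forks, had 72.7, 76.3 and 72.4 CPM in MRC+L, 63.6, 62.8 and 57.4 CPM in MRC, and 51.4, 34.6 and 64.7 CPM in PBS. MRC+L libraries lay above all others, and MRC libraries fell inside the range of PBS. For Atr the log2 fold change was 0.55 ± 0.19 in MRC+L (1.47-fold higher, adjusted p = 0.033) and 0.29 ± 0.19 in MRC (adjusted p = 0.253). Of the 9 fits that left out a library, only that without PBS replicate 3 called Atr higher in MRC. The MRC+L call was lost in 5 of the 9 fits, without PBS replicate 1, MRC replicate 1 or any of the MRC+L libraries (highest adjusted p = 0.0906), and without PBS replicate 2 it was 0.35 ± 0.10 (adjusted p = 0.00579). Atr has the longest exon total of the 37 genes, 23629 bases, and with the offset for exon length its fold change was 0.02 (adjusted p = 0.86).

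Atm (chr9:53350449-53448040, minus strand), the kinase of broken ends, had 67.5, 70.5 and 59.7 CPM in MRC+L, 54.6, 65.9 and 54.8 CPM in MRC, and 56.5, 12.4 and 96.0 CPM in PBS. The PBS libraries ranged so widely that the exposed ones lay in between them. With all libraries Atm had a log2 fold change of 0.26 ± 0.50 in MRC+L (adjusted p = 0.692) and 0.09 ± 0.50 in MRC (adjusted p = 0.907). Without PBS replicate 2 the sign turned, to -0.21 ± 0.15 (adjusted p = 0.243) in MRC+L and -0.39 ± 0.15 (adjusted p = 0.0353) in MRC. No direction is therefore given for Atm.

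Chek1 (chr9:36619778-36638361, minus strand), the target kinase of ATR, had 110, 116 and 113 CPM in MRC+L, 119, 103 and 118 CPM in MRC, and 136, 127 and 130 CPM in PBS. Exposed and PBS libraries did not overlap, but the shift was small at -0.21 ± 0.09 in each comparison (adjusted p = 0.0886 in MRC+L and 0.105 in MRC). Among fits with 1 library left out Chek1 was called only without PBS replicate 2 (-0.24 in each, adjusted p = 0.0216 and 0.0223). Clspn (chr4:126450728-126487696, plus strand), the adaptor that brings CHEK1 to ATR, had 50.1, 50.7 and 49.9 CPM in MRC+L, 55.7, 61.0 and 55.6 CPM in MRC, and 88.9, 64.6 and 103.9 CPM in PBS. Every exposed library lay below every PBS library. The log2 fold change was -0.77 ± 0.15 in MRC+L (1.71-fold lower, adjusted p = 0.00253) and -0.58 ± 0.15 in MRC (1.49-fold lower, adjusted p = 0.0138), and the MRC call was lost without MRC replicate 1 (adjusted p = 0.0567). Topbp1, the activator of ATR, averaged 254 ± 4.55 CPM in MRC+L, 245 ± 11.5 CPM in MRC and 288 ± 69.4 CPM in PBS. Its log2 fold change in the main fit was -0.18 in MRC+L (adjusted p = 0.384) and -0.23 in MRC (adjusted p = 0.289). Among fits with 1 library left out it was called lower only without PBS replicate 2 (-0.36, adjusted p = 0.000603, and -0.42, adjusted p = 0.000164). The offset for exon length also called it lower in both.

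PBS replicate 2 differed from the other PBS libraries along exon length. It was the lowest of the PBS libraries for 24 of the 37 genes and the highest for 11. Among the 19 genes with an exon total of 5782 bases or more it was lowest for 17, and among the 18 shorter genes it was lowest for 7 and highest for 9. Its log2 distance from the mean of the other PBS libraries had a median of -0.25 over the repair genes and -0.01 over all genes tested, and it reached -2.62 for Atm. Across the 37 genes this distance and log2 exon length had a Pearson r of -0.59 and the distance and length a Spearman rho of -0.66, as a description over genes that share the same 3 libraries. The coefficient of variation of the repair genes had a median of 6.42% in MRC+L, 5.53% in MRC and 21.2% in PBS, and that of all genes was 7.22%, 8.76% and 22.2%. With the offset for exon length 1 gene was called higher and 20 lower in MRC+L (23.8% and 27.3% of all genes), and 0 higher and 15 lower in MRC (21.2% and 23.1%). Beyond the main fit it called Brca1, Brca2, Palb2, Fancm and Topbp1 lower in both comparisons. It also called Fancd2 lower in MRC, and Xrcc2, Rad54b, Blm and Fanci in MRC+L. The higher calls of Rbbp8 in both, of Rad52 in MRC and of Atr in MRC+L were lost. Slx4 stayed called higher in MRC+L.

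**Figure D4:**
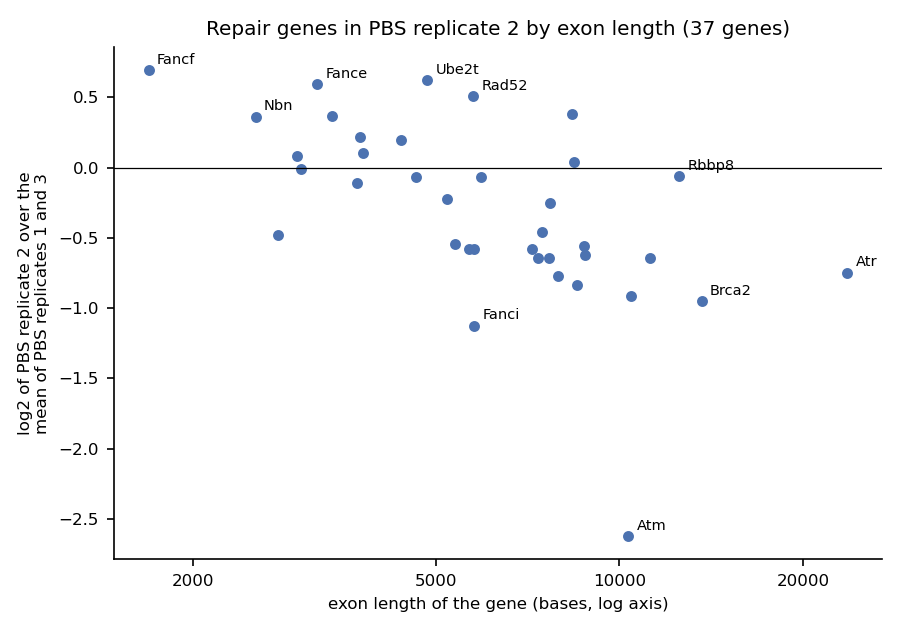
Log2 of PBS replicate 2 over the mean of PBS replicates 1 and 3 (y axis) against exon length in bases (x axis, log scale) for the 37 repair genes. Points fall from above 0 among the shorter genes, such as Fancf and Ube2t, to below 0 among the longer ones, with Atm lowest at -2.62.

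The comparison of MRC+L with MRC asks what light added to cells that already held particles. With all 9 libraries edgeR called 0 of the 37 genes and 0 of 13439 genes overall (0.0%), and at an unadjusted p under 0.05 it found 1 repair gene, Rad54l, and 573 genes (4.26%). DESeq2 called 0 of the 37 and 0.186% of all genes, and limma voom with quality weights 0 and 1.95%. The median log2 fold change was -0.02, beside -0.01 over all genes. Fitted to its own 6 libraries, the comparison called Atr alone (0.27 ± 0.07, adjusted p = 0.0297), where 5.05% of all genes were called, 3.13% higher and 1.91% lower. Its 3 MRC+L libraries had 72.4 to 76.3 CPM and its 3 MRC libraries 57.4 to 63.6 CPM. When 1 of the 6 libraries was also left out, Atr was called without MRC replicate 1 or 2 (adjusted p = 0.0319 and 0.0193) and not in the other 4 fits (up to 0.179). Those fits also called Rad54l lower without MRC replicate 1 (-0.49, adjusted p = 0.0284) and Atm higher without MRC replicate 2 (0.27, adjusted p = 0.0426). With the offset for exon length the fold change of Atr was 0.07 (adjusted p = 0.946), and the length trend itself differed, at -0.249 to -0.132 in MRC+L and -0.162 to 0.0598 in MRC.

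Libraries of MRC+L lay wholly above those of MRC for Brca1, Brca2 and Atr, 3 of 37, where 11.8% of all genes did so. They lay wholly below for Rad51b, Rad51c, Exo1, Fanca, Fancg, Ube2t, Brip1 and Clspn, 8 of 37, where 12.6% of all genes did so. Their fold changes in the fit of 6 libraries were between -0.27 and -0.17 for these 8 genes, and none passed the test (smallest adjusted p = 0.121, for Ube2t). Rad54l had the widest difference at -0.39 ± 0.13 (adjusted p = 0.0741), with MRC+L replicate 2 at 17.5 CPM just above MRC replicate 1 at 17.0 CPM. The p-values that missed the threshold do not show that the groups were alike.

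**Figure D5:**
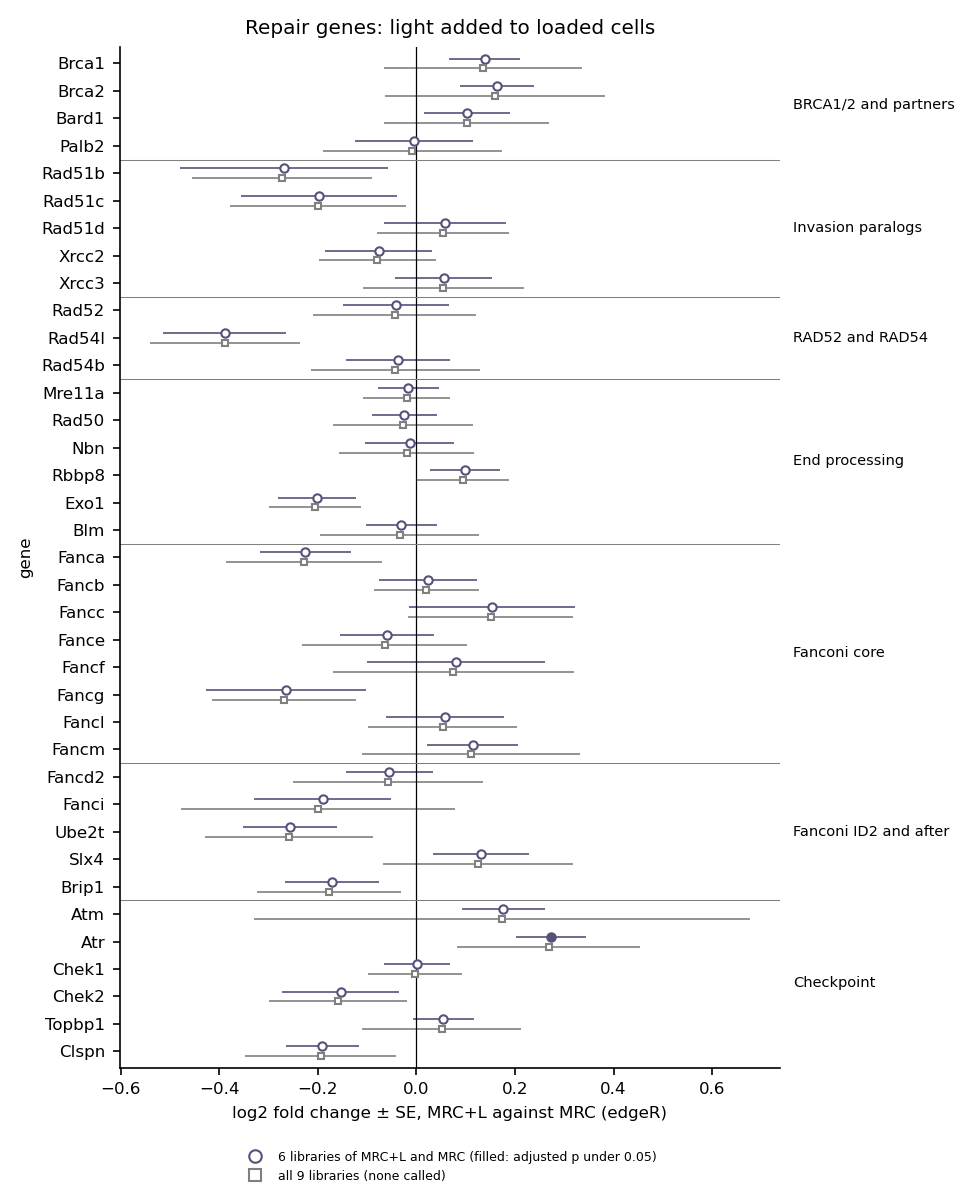
Log2 fold change of MRC+L against MRC (x axis) for each repair gene (rows) with bars of 1 SE, from the fit to the 6 libraries compared and from the fit to all 9; filled points are called. Only Atr is filled, in the fit of 6 libraries, and the bars are wider in the fit of all 9.

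Levels between genes are compared per exon length, in TPM. Chek1 was highest, at 91.6 ± 1.91 TPM in MRC+L, 88.8 ± 4.50 TPM in MRC and 98.6 ± 16.3 TPM in PBS. Topbp1 followed at 85.0 ± 2.47 TPM in MRC+L, 79.5 ± 5.73 TPM in MRC and 91.2 ± 33.3 TPM in PBS and Mre11a at 80.2 ± 2.93 TPM in MRC+L, 78.8 ± 2.12 TPM in MRC and 77.3 ± 13.8 TPM in PBS, so that neighbours in this order overlapped within their SD, except Chek1 and Topbp1 in MRC+L. Rad50 and Nbn, the partners of Mre11a, came next in MRC+L and MRC. The lowest were Rad51b, at 3.43 ± 0.390 TPM in MRC+L, 4.01 ± 0.302 TPM in MRC and 4.06 ± 0.236 TPM in PBS, and Fancc, at 2.89 ± 0.248 TPM in MRC+L, 2.52 ± 0.194 TPM in MRC and 2.40 ± 0.141 TPM in PBS. Fancg had 6.27 ± 0.642 TPM in MRC+L, 7.33 ± 0.886 TPM in MRC and 14.3 ± 1.49 TPM in PBS, and Chek2 18.4 ± 2.53 TPM in MRC+L, 19.9 ± 0.761 TPM in MRC and 34.9 ± 5.85 TPM in PBS.

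Another gene starts on the opposite strand within 1000 bases of the start of 17 of the repair genes. The partner of Brip1, the noncoding Brip1os, starts 177 bases away and was lower with it: it had 46.1, 38.2 and 41.7 CPM in MRC+L, 49.0, 48.2 and 54.3 CPM in MRC, and 102, 99.7 and 100.1 CPM in PBS. Its log2 fold change was -1.26 ± 0.10 in MRC+L (adjusted p = 1.21e-05) and -0.99 ± 0.10 in MRC (adjusted p = 6.67e-05), and PBS replicate 2 did not stand out. The exons of Brip1 share no bases with it. The partner of Rad54l, Pomgnt1, starts 150 bases away and averaged 51.0 ± 1.99 CPM in MRC+L, 53.1 ± 2.27 CPM in MRC and 52.1 ± 3.49 CPM in PBS, and was not called (log2 fold change -0.03 and 0.03). Emc3, 30 bases from Fancd2, was not called either (0.07 and 0.08), nor was Hscb, the partner of Chek2 (-0.67, adjusted p = 0.0898, and -0.60, adjusted p = 0.132). Nbr1, 194 bases from Brca1, was higher in MRC+L (0.40 ± 0.12, adjusted p = 0.0224), and Dctn5, 56 bases from Palb2, was lower (-0.56 ± 0.13, adjusted p = 0.00512). The partner of Topbp1, 1300017J02Rik, was called higher in both comparisons (adjusted p = 0.00848 and 0.0308), from low levels of 0.867 CPM in MRC+L, 0.582 CPM in MRC and 0.0971 CPM in PBS. In the main fit Brip1 and Brip1os were the only pair of which both genes were called lower.

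The rest of the repair machinery showed changes in both directions. The counts below stand beside the shares of all genes given above, 21.8% higher and 24.5% lower in MRC+L and 17.8% higher and 19.8% lower in MRC. Of 51 other genes of homologous recombination and the Fanconi pathway, 6 were higher and 15 lower in MRC+L and 4 higher and 13 lower in MRC. These counts were, without PBS replicate 2, 7 and 20 in MRC+L and 8 and 18 in MRC, beside 27.4% and 28.3% of all genes in MRC+L and 24.7% and 26.0% in MRC. Among them the helicase gene Recql4 averaged 50.6 ± 1.64 CPM in MRC+L, 53.6 ± 5.92 CPM in MRC and 29.8 ± 0.977 CPM in PBS (adjusted p = 0.000334 and 0.000232), and Rnf138, a ubiquitin ligase of end resection, was 1.56-fold and 1.50-fold higher (adjusted p = 0.00137 and 0.00267). Eme1, a partner of the nuclease MUS81, was 1.78-fold and 1.59-fold lower (adjusted p = 0.000407 and 0.00178), and the fork repair gene Tonsl 1.82-fold and 1.60-fold lower (adjusted p = 0.000469 and 0.00223). Of 24 other checkpoint genes 3 were higher and 9 lower in MRC+L, and 3 higher and 6 lower in MRC, and without PBS replicate 2 the counts were 3 and 10 in MRC+L and 4 and 9 in MRC. Rfc5, of the clamp loader, averaged 38.5 ± 2.41 CPM in MRC+L, 40.6 ± 2.18 CPM in MRC and 78.8 ± 7.61 CPM in PBS (adjusted p = 5.52e-05 and 0.000118). Rfc2 was 2.73-fold and 2.32-fold lower (adjusted p = 0.000306 and 0.00104). The phosphatase genes went apart, with Cdc25c 2.18-fold and 1.86-fold lower (adjusted p = 9.06e-05 and 0.000467) and Cdc25a 1.44-fold and 1.54-fold higher (adjusted p = 0.00218 and 0.00107).

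In end joining, the pathway that rejoins ends without a template, 1 of 13 genes was higher and 3 lower in MRC+L, and 1 higher and none lower in MRC; without PBS replicate 2 there were 2 higher and 3 lower in MRC+L and 1 of each in MRC. With all libraries the gene that was higher was Lig4, the ligase of the pathway, with 19.6, 22.4 and 17.3 CPM in MRC+L, 20.2, 18.3 and 18.9 CPM in MRC, and 6.06, 4.35 and 6.72 CPM in PBS. All exposed libraries lay above all PBS libraries, and the fold was 3.45 in MRC+L (adjusted p = 3.49e-05) and 3.35 in MRC (adjusted p = 5.76e-05). Base excision repair had 3 higher and 6 lower of 19 in MRC+L and 2 higher and 5 lower in MRC (3 and 8, and 3 and 6, without PBS replicate 2), led by the glycosylase gene Neil3, which was 2.73-fold and 2.65-fold lower (adjusted p = 2.2e-05 and 3.36e-05). Nucleotide excision repair was divided, with 6 higher and 5 lower of 22 in MRC+L and 5 higher and 4 lower in MRC (7 and 6, and 6 and 5, without PBS replicate 2). There Ercc6 and Ercc8, the genes of the transcription-coupled branch, were 3.14-fold and 2.41-fold higher in MRC+L (adjusted p = 0.000182 and 3.66e-05) and 2.52-fold and 2.02-fold higher in MRC (adjusted p = 0.000837 and 0.000197), and Ercc1 was 3.09-fold and 2.68-fold lower (adjusted p = 9.3e-06 and 2.81e-05). Cetn2 was 2.59-fold and 2.25-fold lower (adjusted p = 0.000258 and 0.000809).

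Genes of the cell cycle were lower in the same libraries. Of 32 such genes chosen as a reference, 1 was higher and 30 lower in MRC+L (21.8% and 24.5% of all genes). In MRC none was higher and 24 were lower (17.8% and 19.8%). The fit without PBS replicate 2 called 1 higher in each, and 31 lower in MRC+L and 28 in MRC. In that fit 27.4% of all genes were higher and 28.3% lower in MRC+L, and 24.7% and 26.0% in MRC. The median log2 fold changes of the 32 genes in the main fit were -0.71 and -0.60, beside -0.21 and -0.21 for the repair genes. Tk1, the thymidine kinase of S phase, averaged 36.6 ± 2.22 CPM in MRC+L, 46.3 ± 6.09 CPM in MRC and 183 ± 41.3 CPM in PBS, and the transcription factor gene E2f1 27.4 ± 2.16 CPM in MRC+L, 29.7 ± 1.88 CPM in MRC and 53.5 ± 0.150 CPM in PBS. Mcm6 and Rrm2 were called 2.11-fold and 1.93-fold lower in MRC+L, and 1.87-fold and 1.65-fold lower in MRC. The 8 epithelial markers summed to 560 to 572 CPM in MRC+L, 634 to 667 CPM in MRC and 1056 to 1878 CPM in PBS, with Krt8 and Krt18 called lower in both, Cdh1 and Krt7 called lower in MRC+L, Krt5 at 0 in every library and Epcam at no more than 0.311 CPM. Krt14 was called higher in both (adjusted p = 0.000968 and 0.000528), with means of 1.43 CPM in MRC+L, 1.79 CPM in MRC and 0.255 CPM in PBS. The 8 leukocyte markers summed to 28.0 to 31.5 CPM in MRC+L, 24.8 to 30.6 CPM in MRC and 15.3 to 29.2 CPM in PBS, with Adgre1 and Cd3e at 0 throughout and Ptprc, which defines leukocytes, at no more than 0.162 CPM. Cd68 of this list was called 1.99-fold higher in MRC+L (adjusted p = 0.00203) and 2.06-fold higher in MRC (adjusted p = 0.00195). The 8 markers of stroma and endothelium summed to 75.8 to 87.2 CPM in MRC+L, 79.9 to 96.3 CPM in MRC and 45.5 to 81.8 CPM in PBS, with Dcn, Lum and Kdr at or near 0. Most of that sum was Pdgfra, which was called 1.63-fold higher in MRC+L (adjusted p = 0.0171) and 1.75-fold higher in MRC (adjusted p = 0.0107). Pdgfrb was called 3.10-fold and 2.76-fold lower (adjusted p = 0.000447 and 0.000996), and Pecam1 was called higher (adjusted p = 0.0154 and 0.0298) with means of 0.666 CPM in MRC+L, 0.590 CPM in MRC and 0.150 CPM in PBS. What part these cell cycle genes and markers had in the values of the repair genes was not tested.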

How the data were processed

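RNA of 9 libraries of 4T1 cells was measured, 3 each of MRC+L, MRC and PBS. The authors deposited 1 table of raw counts per library for 55416 genes. These counts were made with featureCounts 2.0.1 from paired ends over exons summed by gene, with the Ensembl release 104 annotation of GRCm39, without a strand option and without reads of several places, per the file headers. The aligner is not given in the sources used here. Reads of overlapping or near-identical genes are therefore uncertain or lost.

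Symbols came from GENCODE M21 by gene ID (52083 IDs, 94%) and promoters from RefSeq GRCm38.p6. Genes were kept by the edgeR filter (minimum count 10, minimum total 15), which left 13439. All 9 libraries entered 1 edgeR quasi-likelihood fit, with TMM scaling (a trimmed mean of log ratios between libraries), a mean for each group, Benjamini-Hochberg adjustment over all genes kept and calls under 0.05. The SE was derived from the F statistic, and fold changes used a prior count of 0.125. Log values for the length trend, its offset and the correlations between libraries used a prior count of 2. Plotted log2 CPM had no prior count. R 4.3.3, edgeR 4.0.16, limma 3.58.1, DESeq2 1.42.0, Python 3.11.15, pandas 2.3.3 and matplotlib 3.10.9 were used. The tests were also run on simulated counts with 1 spread per group and without the trend with exon length. That run does not cover the length trend, and its outcome is not given here.

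Alternatives were other scaling factors, DESeq2, limma voom with quality weights, no filter, an offset for exon length (a loess trend in each library), a replicate block, only the 6 libraries compared, and each library left out; leaving out 1 of the 6 libraries of MRC+L and MRC was added after seeing the data. Library by library are given the 6 called genes with the smallest adjusted p in each comparison and Brca1, Brca2, Fancd2, Atm, Atr and Chek1. Of each other list reported, up to 4 called genes with the smallest adjusted p in MRC against PBS are given, most as means or fold changes. Rad52, Rbbp8, Slx4, Ube2t, the partners and the genes called in 1 fit only were added after their values were seen. The members and lists were chosen with earlier results of these data known. Hrob and Shld3 of the other lists were not matched and are not analysed here, and 1 other list is not reported here. Replicates differed by more than counting noise (chi-square per degree of freedom 3.63 to 142).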

Additional observations from a re-analysis of the deposited data

How the results depend on the processing

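Of the fold changes of the 37 genes under all alternatives, 1933 kept their direction and side of the threshold. Of the rest, 107 gained a call, 83 lost one, 94 changed sign without a call, and 3 not called at first were called with the opposite sign. The last were Fancf with limma voom and quality weights, at 0.39 in MRC against PBS (adjusted p = 0.0353) and 0.43 in MRC+L against PBS (adjusted p = 0.0118), and Atm in MRC against PBS without PBS replicate 2, at -0.39 (adjusted p = 0.0353); with 1 library left out Atm ranged from -0.39 to 0.76 there. In MRC against PBS, with 2 genes higher and 9 lower, the number higher was 0 with upper quartile factors, with the length offset and with only the 6 libraries compared, and 6 with limma voom and quality weights. The number lower was 24 with limma voom and quality weights, 15 with the length offset, and 6 with the 6 libraries. In MRC+L against PBS, with 3 higher and 11 lower, the number higher was 7 with limma voom and quality weights, 1 with the length offset and 1 with the 6 libraries, and the number lower 26 with limma voom and quality weights and 20 with the length offset, where the median log2 fold change was -0.33. In MRC+L against MRC 1 gene was higher with the 6 libraries. The cause of these differences was not tested.

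With each library left out in turn, 0 to 2 genes were higher and 5 to 22 lower in MRC against PBS (median log2 fold change -0.30 to -0.16). Over all genes 12.2% to 24.7% were higher and 13.6% to 26.0% lower in these fits. The 5 genes were 13.5% of the 37, beside 13.6% (without MRC replicate 1). The 22 were 59.5%, beside 26.0% (without PBS replicate 2). In MRC+L against PBS 1 to 4 were higher and 9 to 22 lower (-0.33 to -0.18). Over all genes these shares were 16.1% to 27.4% and 17.9% to 28.3%. In MRC+L against MRC the fits of all groups gave 0 in each direction (-0.03 to -0.01), and the fits of its own libraries gave 0 to 2 higher and 0 to 1 lower (-0.03 to 0.00). In the latter fits 0.679% to 4.68% of all genes were higher and 0.355% to 2.94% lower.

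The labels do not say whether the replicate numbers pair the samples. Same-numbered libraries had correlations of -0.185 to 0.0385 in their deviations from the group means, and differently numbered ones -0.126 to 0.204. With 3 libraries in each group these values cannot show whether the samples were paired. The replicate block gave 0 higher and 8 lower in MRC against PBS (15.3% and 16.5% of all genes), 2 higher and 9 lower in MRC+L against PBS (19.6% and 21.3%), and 0 in MRC+L against MRC. The replicate block with the length offset gave 0 higher and 15 lower in MRC against PBS (19.3% and 20.6%), and 1 higher and 17 lower in MRC+L against PBS (22.0% and 24.9%) with a median of -0.31. The part depth had in these calls was not tested; Rad51b had the fewest counts, 46 to 70 in MRC+L, 62 to 92 in MRC and 65 to 83 in PBS.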
